A study of Mus musculus with 36 samples.

Results

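The comparison described here sets 9 kidneys of diabetic mice without the clock gene Bmal1 in the renal tubule against 9 kidneys of diabetic littermates that kept it, 18 of the series' 36 libraries. The members were taken by their titles, the libraries of streptozotocin-treated knockout and of streptozotocin-treated control mice, and are called STZ-cKOt and STZ-control below. STZ-cKOt mice carried 2 floxed Bmal1 alleles with the transgenes Pax8-rtTA and LC1, which switch on Cre recombinase in Pax8-expressing tubule cells when doxycycline is given. STZ-control mice were littermates with the floxed alleles alone, so the deletion and the presence of the transgenes cannot be told apart. All 18 mice drank doxycycline at 2 mg/ml for 2 weeks from 8 weeks of age. Diabetes was induced 1 week later by 5 daily injections of 50 mg/kg streptozotocin (STZ), which destroys the insulin-producing cells of the pancreas. The whole kidney was collected at zeitgeber time 9, counted in hours from lights on, once 8 weeks had passed since the injections ended. The other 18 libraries, 9 PBS-cKOt and 9 PBS-control, came from mice of the same genotypes injected with the vehicle and serve as the comparison. The title of the series asks about the tubular clock and the kidney's own glucose production in diabetes.

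BMAL1, the protein of the gene Arntl, pairs with CLOCK or NPAS2 and binds E-box elements. It thereby drives the Per and Cry genes, the REV-ERB genes Nr1d1 and Nr1d2, and the PAR-bZIP factors Dbp, Tef and Hlf, which bind D-box elements. PER and CRY proteins inhibit the pair, and REV-ERB proteins repress Arntl, Npas2, Nfil3, Cry1 and other genes with ROR/REV-ERB elements. In the kidney the clock is known to govern daily rhythms of ion transport, drug handling and metabolism. The proximal tubule is also, beside the liver, the site of gluconeogenesis.

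Sequence near the start sites of 4 clock genes is printed because these genes carried recognisable clock elements and differed between STZ-cKOt and STZ-control. Cry1 was higher in STZ-cKOt, and Ciart, Tef and Per3 were lower. Each stretch ends at the first base that GENCODE M21 annotates as exon, or just before the RefSeq start, runs 5′ to 3′ on the strand of the gene, and is credited to RefSeq (GRCm38.p6). Capitals mark an E-box (CACGTG) or a D-box (TTANGTAA), searched on both strands together with the ROR/REV-ERB element TAGGTCA. Ciart, whose protein inhibits the BMAL1 pair, has 3 E-boxes, which begin 93, 35 and 21 bases before the end of the printed stretch. Counted the same way, Cry1 has 1 E-box at 50 bases and Tef 1 at 138, while Per3 has 2 D-boxes at 205 and 158 bases.
Ciart (chr3:95882252-95882478, minus strand): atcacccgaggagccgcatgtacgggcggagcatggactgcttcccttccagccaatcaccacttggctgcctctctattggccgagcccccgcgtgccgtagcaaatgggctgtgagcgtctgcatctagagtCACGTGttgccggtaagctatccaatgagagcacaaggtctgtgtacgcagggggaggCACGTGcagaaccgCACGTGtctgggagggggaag
Cry1 (chr10:85185065-85185304, minus strand): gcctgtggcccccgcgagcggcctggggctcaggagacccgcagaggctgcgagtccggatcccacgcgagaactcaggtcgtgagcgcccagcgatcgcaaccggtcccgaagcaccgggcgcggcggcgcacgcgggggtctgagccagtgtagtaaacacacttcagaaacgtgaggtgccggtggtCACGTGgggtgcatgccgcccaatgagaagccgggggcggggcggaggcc
Tef (chr15:81811164-81811413, plus strand): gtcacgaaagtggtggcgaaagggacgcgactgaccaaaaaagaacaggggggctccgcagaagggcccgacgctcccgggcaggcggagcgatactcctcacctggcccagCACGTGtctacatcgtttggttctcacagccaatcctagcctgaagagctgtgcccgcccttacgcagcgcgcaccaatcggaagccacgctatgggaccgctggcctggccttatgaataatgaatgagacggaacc
Per3 (chr4:151044666-151044915, minus strand): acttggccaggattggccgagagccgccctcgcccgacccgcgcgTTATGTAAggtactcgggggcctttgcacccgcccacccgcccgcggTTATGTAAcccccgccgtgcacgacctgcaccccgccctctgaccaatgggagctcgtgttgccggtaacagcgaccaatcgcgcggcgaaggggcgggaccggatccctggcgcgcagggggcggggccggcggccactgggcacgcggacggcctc
An E-box of these letters lies in 6.02% of all 32851 RefSeq windows of 250 bases before a start, a D-box in 2.06% and the ROR/REV-ERB element in 2.23%. Another window of Tef and windows of Bhlhe41 and Per1 also hold an E-box, and that of Nfil3 a ROR/REV-ERB element. They are not printed. The windows of Tef, Bhlhe41 and Nfil3 hold more than 30 annotated exon bases (250, 138 and 34, where those of Ciart and Cry1 held 23 and 10, which were trimmed), and Per1 did not pass the test. Of the 19 clock genes on the lists, 3 had no window in the table, among them Per2 and Bhlhe40. The other 9 held none of the 3 letter strings within 250 bases, which says nothing of other elements or distances.

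The 18 libraries held between 16.9 and 22.3 M reads assigned to genes, and between 20903 and 22079 genes had a read. Levels are given as counts per M assigned reads (CPM), and differences as STZ-cKOt minus STZ-control on the log2 scale with their standard error, from an edgeR fit of all 36 libraries. Sex is not among the labels used here. Xist stood at no more than 0.312 CPM and the Y-linked Ddx3y at 22.9 CPM or more in each of the 18 libraries. Markers of the kidney's tubule segments were present in every library, with summed levels of 13 proximal tubule markers between 17090 and 23969 CPM. STZ-control 7 and 8 had the highest mitochondrial shares of assigned reads, 25.6% and 24.7%, where the other 16 libraries had at most 19.9%. Results are also given without these and PBS-cKOt 1 and 3, together called the 4 libraries that stood apart. The mitochondrial share does not single out PBS-cKOt 1 and 3, at 12.1% and 18.4%, while PBS-control 3, at 21.5%, was kept. The library labelled STZ-control 2 had clock genes at or near the knockout level, so results are given with it and without it.

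At an adjusted p under 0.05, 3061 of 15637 tested genes differed, 1488 higher (9.52% of tested genes) and 1573 lower (10.1%) in STZ-cKOt. Without STZ-control 2 there were 2921, with 9.02% of tested genes higher and 9.66% lower, of which 2791 were among the 3061 with the same direction. Changes of at least 2-fold were 161 rises (1.03%) and 194 falls (1.24%), and such changes made up 2.31% of tested genes without STZ-control 2. For 548 genes (3.5%) the 9 libraries of one genotype did not overlap the 9 of the other, 291 higher (1.86%) and 257 lower (1.64%). Without STZ-control 2 this held for 637 genes (4.07%), 2.13% higher and 1.94% lower. The median log2 difference of all tested genes was −0.01. For the counts of gene lists below, 9.52% higher and 10.1% lower is thus the share over all tested genes. It was not matched to the expression level of the members of a list, on which the power to call a gene depends.

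**Figure D1:**
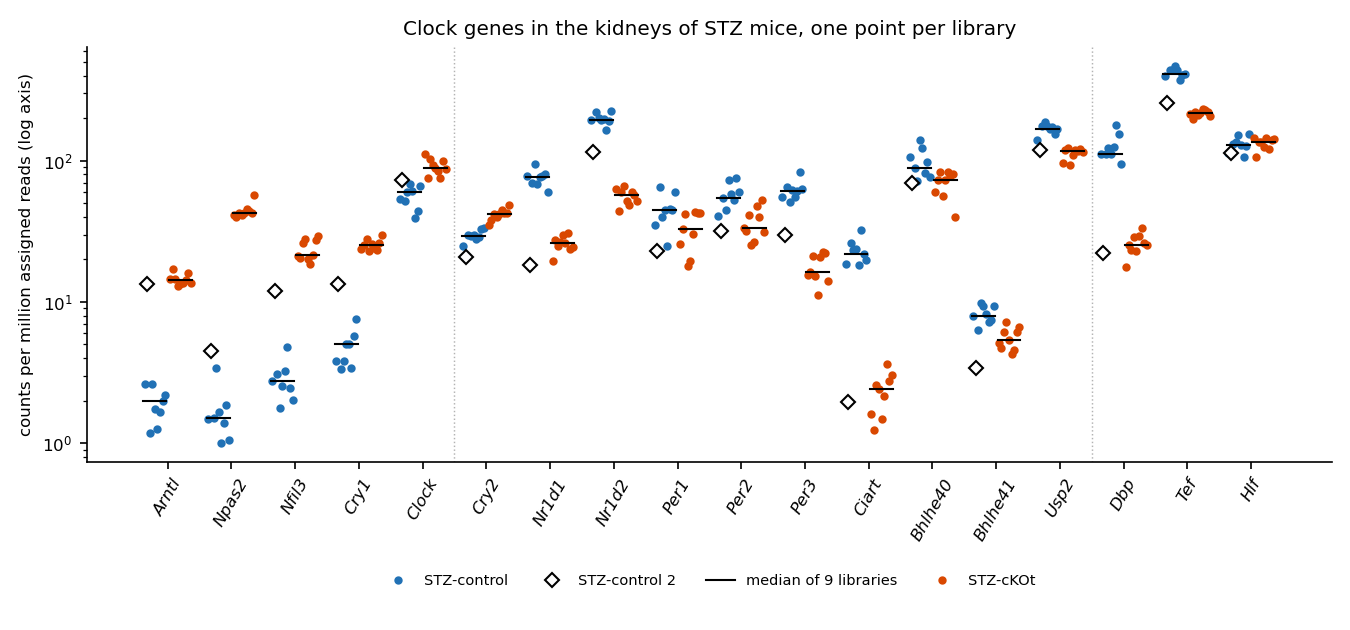
Level of 18 clock genes in each STZ library, in CPM on a log axis, with STZ-control in blue, STZ-cKOt in orange, the library labelled STZ-control 2 as an open diamond and a line at the median of 9. Left of the first dotted line stand the activators and ROR/REV-ERB-controlled genes, all higher in STZ-cKOt, and right of the second the PAR-bZIP factors; STZ-control 2 lies with the knockout libraries for Arntl, Ciart, Nr1d1 and Dbp.

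All 6 genes of the activators and ROR/REV-ERB-controlled genes rose in the diabetic knockout, with a median of 2.15, and 2.66 without STZ-control 2. Npas2, which can stand in for CLOCK as BMAL1's partner (chromosome 1, 39193731 to 39363236), ran from 1.01 to 4.49 CPM (median 1.504) in STZ-control and from 39.7 to 57.6 (median 42.8) in STZ-cKOt. Its groups lay far apart and the highest control was STZ-control 2. The difference was 4.46 ± 0.17 (edgeR adjusted p = 6.5e-22). Arntl itself (chromosome 7, 113207465 to 113314126) ran from 1.18 to 13.4 CPM (median 1.99) in STZ-control and from 13.03 to 17.1 (median 14.3) in STZ-cKOt. The groups overlapped through STZ-control 2 alone, at 13.4 CPM. The counts cover all exons of Arntl in every kidney cell type and so do not show the deletion itself. The difference of Arntl was 2.15 ± 0.27 with all libraries (edgeR adjusted p = 6.49e-08) and 2.91 without STZ-control 2 (2.6e-20).

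Nfil3, a bZIP repressor that competes with the PAR-bZIP factors for D-boxes (chromosome 13, 52967209 to 52981073), ran from 1.77 to 11.97 CPM (median 2.75) in STZ-control and from 18.6 to 29.5 (median 21.5) in STZ-cKOt. No control reached the knockout range, although STZ-control 2 stood at 11.97 CPM, and the difference was 2.61 ± 0.24 (edgeR adjusted p = 2.86e-11). Cry1, an inhibitor of CLOCK and BMAL1 (chromosome 10, 85131700 to 85185064), ran from 3.34 to 13.5 CPM (median 5.01) in STZ-control and from 23.1 to 29.8 (median 25.3) in STZ-cKOt, again with STZ-control 2 as the highest control, at 13.5 CPM. It rose by 2.15 ± 0.17 (edgeR adjusted p = 7.62e-13). Its promoter, printed above, carries an E-box. Clock, the standard partner of BMAL1, rose least of the 6, by 0.65 ± 0.11, from 39.6 to 73.5 CPM (median 60.5) in STZ-control and from 74.9 to 112 (median 88.8) in STZ-cKOt.

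Of the 10 clock repressors and E-box targets 8 fell, Cry2 rose and Per1 did not pass the test. The median was −0.55 (−0.61 without STZ-control 2). Ciart (chromosome 3, 95878503 to 95882251), whose 3 E-boxes are printed above, fell most. It ran from 1.95 to 32.5 CPM (median 22.01) in STZ-control and from 1.23 to 3.62 (median 2.41) in STZ-cKOt. Only STZ-control 2, at 1.95 CPM, lay inside the knockout range. The difference was −3.14 ± 0.27 (edgeR adjusted p = 1.31e-11) and −3.30 without that library. Nr1d2, which encodes REV-ERBβ, ran from 115 to 223 CPM (median 195) in STZ-control and from 44.2 to 66.5 (median 57.6) in STZ-cKOt and did not overlap (−1.75 ± 0.10). Nr1d1, which encodes REV-ERBα, ran from 18.2 to 95.5 CPM (median 76.9) in STZ-control and from 19.6 to 30.8 (median 26.1) in STZ-cKOt and overlapped through STZ-control 2, whose 18.2 CPM lay below the knockout range. Its difference was −1.42 ± 0.16, or −1.55 without it.

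Among the period genes the size of the fall differed. Per3 (chromosome 4, 151003652 to 151044665), with the D-boxes printed above, ran from 29.6 to 83.1 CPM (median 61.1) in STZ-control and from 11.2 to 22.5 (median 16.3) in STZ-cKOt and did not overlap (−1.72 ± 0.13, edgeR adjusted p = 7.62e-13). Per2 ran from 32.01 to 75.5 CPM (median 54.7) in STZ-control and from 25.5 to 52.9 (median 33.5) in STZ-cKOt, with overlapping groups, and fell (−0.57 ± 0.15). Per1 stood at −0.36 ± 0.18 (edgeR adjusted p = 0.174), from 23.1 to 64.6 CPM (median 44.4) in STZ-control and from 18.1 to 43.3 (median 33.05) in STZ-cKOt, and also missed the threshold without STZ-control 2 (adjusted p = 0.0819). The deubiquitinase gene Usp2 stood at −0.53 ± 0.08, and the E-box repressor genes Bhlhe40 and Bhlhe41 at −0.45 ± 0.13 and −0.46 ± 0.14. All 3 fell. Cry2, an inhibitor like Cry1, ran from 20.9 to 33.5 CPM (median 29.1) in STZ-control and from 35.01 to 48.2 (median 42.2) in STZ-cKOt without overlap and rose by 0.55 ± 0.07.

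Of the 3 PAR-bZIP factors, transcription factors that pass clock time on to detoxification genes, Dbp and Tef fell. Dbp ran from 22.1 to 179 CPM (median 112) in STZ-control and from 17.5 to 33.1 (median 25.5) in STZ-cKOt. Here too the one overlapping control was STZ-control 2, at 22.1 CPM. Its difference was −2.15 ± 0.19 (edgeR adjusted p = 2.76e-11), and −2.29 without that library. Tef ran from 258 to 469 CPM (median 414) in STZ-control and from 197 to 231 (median 217) in STZ-cKOt without overlap (−0.90 ± 0.07). Hlf stood at 0.04 ± 0.07 (adjusted p = 0.751), from 106 to 153 CPM (median 128) in STZ-control and from 106 to 145 (median 136) in STZ-cKOt, so no difference was shown at this spread.

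The library labelled STZ-control 2 was examined against both genotypes for the 194 genes with a symbol and a mean of at least 2 CPM that changed at least 2-fold without it. On a log2 scale where the median of the other 8 controls is 0 and the STZ-cKOt median is 1, its median position was 0.0945 (quartiles −0.116 and 0.330). It lay above 0.5 for 24 of the 194 genes and between −0.5 and 0.5 for 158. It was inside the range of the other 8 controls, and not of STZ-cKOt, for 115, and inside the STZ-cKOt range alone for 10. Nr1d1 lay beyond the knockout median, and the 8 genes nearest to it were Arntl, Ciart, Dbp, Slc16a1, Hmcn2, Nt5e, Asb11 and Itga6. Slc16a1, a carrier of lactate and ketone bodies, stood at 80.1 CPM in STZ-control 2, at 21.2 to 46.4 CPM in the other 8 and from 75.7 to 133 in STZ-cKOt. The 8 nearest the control level included Loxl4, Col6a6, C4a, Mdk, Kcnip2, Cndp2 and Pde6a. Several genes with large knockout changes stood at the control level in this library, such as Aqp8 at 0.589 CPM (STZ-cKOt from 19.8), Cyp4a12a at 145 CPM (STZ-cKOt up to 19.7) and Fgg at 8.43 CPM (STZ-cKOt from 77.6).

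**Figure D2:**
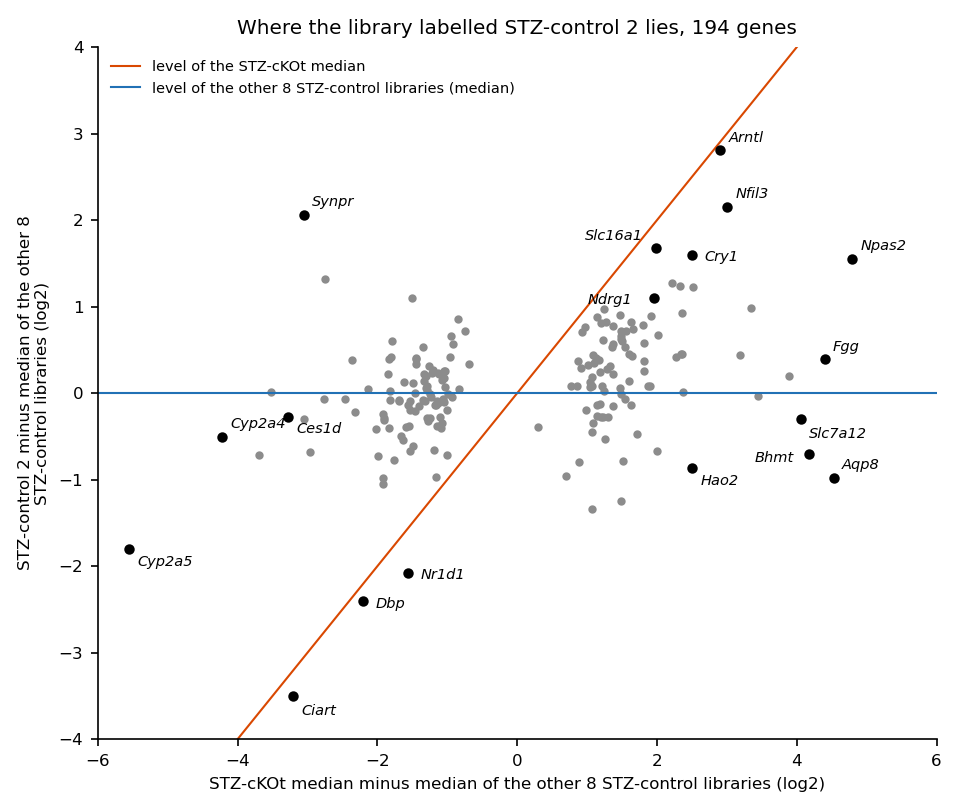
Level of the library labelled STZ-control 2 relative to the median of the other 8 STZ-control libraries (vertical axis, log2) against the STZ-cKOt median relative to the same 8 (horizontal axis, log2), for 194 genes that changed at least 2-fold without it. Points on the blue line have the level of the other controls and points on the orange line that of the knockout; Arntl, Ciart, Dbp and Slc16a1 lie near the orange line, while Aqp8, Fgg, Bhmt, Cyp2a4 and Ces1d lie near the blue one or beyond it.

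In all, 261 of 15637 tested genes had all 18 cKOt libraries of both treatments on one side of the 17 controls other than STZ-control 2. Of these 261 genes, 104 were among the 194. For 164 of them this library lay on the side of the controls, for 61 between the genotypes and for 36 with the knockouts. The largest log2 difference of all tested genes belonged to Vmn1r32, a vomeronasal receptor gene (chromosome 6, 66552180 to 66560096), which was named after its values were seen. It had between 42 and 70 reads in each STZ-cKOt library and 0 in each of the 9 STZ-control libraries, STZ-control 2 included. With 3 reads pooled over the 9 libraries taken as the limit for a count of 0, the level was at least 166-fold higher in STZ-cKOt. This limit leaves out variation between animals. PBS-cKOt libraries had between 37 and 74 reads and PBS-control libraries between 0 and 2. Mad2l1, which lies just before it on the chromosome and was likewise chosen afterwards, stood at 0.00 ± 0.09. STZ-control 2 thus had knockout-like levels of core clock genes, levels nearer the controls for 158 of the 194 genes (within 0.5 of the control median on that scale) and no read of Vmn1r32.

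STZ-control 9 was the other control with many genes towards the knockout. It lay above 0.5 for 41 of the 194 genes, against 24 in STZ-control 2 and 4 to 10 in the other 7. The 194 genes were chosen in the fit without STZ-control 2, which included the other 8 controls. The count of STZ-control 2 is therefore not comparable with theirs. Of the 41 genes of STZ-control 9, 3 were also above 0.5 in STZ-control 2, among them Pdk4. The others included Odc1, at 541 CPM where the median of the other 8 controls was 1191 and that of STZ-cKOt 458, and Cndp2, at 661 CPM against 1519 and 549. Its Arntl and Ciart stood at 2.20 and 19.7 CPM, within the other controls.

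Genes of detoxification, a known output of the PAR-bZIP factors, were mostly lower. Of 16 members 10 fell and 1 rose, the same without STZ-control 2. The near-identical cytochrome P450 genes Cyp2a5 and Cyp2a4, which oxidise coumarin and steroids, had the largest falls. Cyp2a5 (chromosome 7, 26835305 to 26843548) ran from 41.5 to 230.2 CPM (median 143) in STZ-control and from 2.33 to 4.80 (median 3.04) in STZ-cKOt, and Cyp2a4 from 367 to 735 CPM (median 459) in STZ-control and from 17.4 to 43.2 (median 27.7) in STZ-cKOt. Neither pair of groups overlapped. The differences were −5.49 ± 0.25 and −4.12 ± 0.18, with the split between the 2 genes uncertain, since reads with several matches were left uncounted. Ces1d, a carboxylesterase gene, ran from 206 to 289 CPM (median 269.8) in STZ-control and from 18.7 to 38.9 (median 28.2) in STZ-cKOt (−3.10 ± 0.15). Por, which supplies electrons to the cytochromes P450, ran from 239 to 316 CPM (median 268) in STZ-control and from 137 to 187 (median 163) in STZ-cKOt (−0.78 ± 0.07).

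The Slc22, Slco and Slc47 families carry drugs and organic ions into or out of tubule cells. Of 22 members on the list 14 fell and 0 rose by edgeR at the adjusted threshold. Without STZ-control 2 13 fell, and without the 4 libraries that stood apart 9, in each case with 0 higher. The list does not hold every member of these families. Slc22a29, which is not on it, rose by 1.74 without STZ-control 2 and passed the threshold. Its medians were 2.35 CPM in the other 8 controls and 8.73 in STZ-cKOt. Slc22a8, the organic anion carrier OAT3, ran from 211 to 457 CPM (median 326) in STZ-control and from 99.7 to 192 (median 145) in STZ-cKOt without overlap (−1.20 ± 0.13). Slco3a1 ran from 152 to 238 CPM (median 215) in STZ-control and from 80.8 to 143 (median 105) in STZ-cKOt (−0.94 ± 0.08), and Slc22a26 from 18.03 to 34.4 CPM (median 26.3) in STZ-control and from 4.73 to 14.7 (median 7.32) in STZ-cKOt (−1.62 ± 0.20). The carnitine carrier gene Slc22a5 stood at −0.64 ± 0.08. Among 10 ABC transporters, which pump compounds out of cells, 3 rose and 2 fell, and 2 and 3 without the 4 libraries that stood apart. The 2 genes of the drug pump P-glycoprotein moved apart, Abcb1a by −0.86 ± 0.15 and Abcb1b by 0.95 ± 0.16. Abcc3 rose by 0.76 ± 0.14 and the sterol pump gene Abcg1 fell (−0.42 ± 0.12).

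Outside the clock, genes that are barely present in the control kidney were among the largest rises. Aqp8, a channel for water and ammonia (chromosome 7, 123462291 to 123468004), ran from 0.426 to 2.92 CPM (median 1.10) in STZ-control and from 19.8 to 42.9 (median 28.97) in STZ-cKOt (4.70 ± 0.26). The 3 fibrinogen chain genes, which lie side by side on chromosome 3, rose together. Fgg (start 83007724) ran from 4.89 to 18.96 CPM (median 6.52) in STZ-control and from 77.6 to 191 (median 136) in STZ-cKOt, Fga (start 83026076) from 10.2 to 35.8 CPM (median 18.2) in STZ-control and from 112 to 238 (median 184) in STZ-cKOt, and Fgb (start 83040141) from 0.114 to 2.18 CPM (median 0.719) in STZ-control and from 3.44 to 11.6 (median 6.65) in STZ-cKOt. None of the 3 overlapped, and the differences were 3.99 ± 0.27, 3.08 ± 0.20 and 3.13 ± 0.35. STZ-control 5 had the highest control level of Fgg and Fgb. Slc7a12, an amino acid carrier (chromosome 3, 14480697 to 14505830), ran from 0.730 to 5.69 CPM (median 1.99) in STZ-control and from 24.8 to 87.8 (median 40.96) in STZ-cKOt (4.04 ± 0.35). Loxl4, a lysyl oxidase that crosslinks collagen, ran from 1.46 to 3.50 CPM (median 2.63) in STZ-control and from 18.2 to 37.9 (median 29.6) in STZ-cKOt (3.50 ± 0.17), and Hao2, a peroxisomal hydroxyacid oxidase, from 95.01 to 328 CPM (median 191) in STZ-control and from 863 to 1296 (median 1098) in STZ-cKOt (2.54 ± 0.18). Fhad1 rose by 3.97 ± 0.22 and the collagen gene Col6a6 by 2.69 ± 0.23, both without overlap.

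The largest falls beyond the P450 genes included secreted proteins usually made by the liver. Alb, serum albumin, ran from 4.94 to 13.3 CPM (median 8.76) in STZ-control and from 0.949 to 3.21 (median 1.12) in STZ-cKOt (−2.51 ± 0.30), and Hrg, histidine-rich glycoprotein, from 4.72 to 8.51 CPM (median 6.44) in STZ-control and from 0.617 to 1.21 (median 0.735) in STZ-cKOt (−2.78 ± 0.17). Serpina1d, an antitrypsin gene, ran from 100.4 to 161 CPM (median 118) in STZ-control and from 22.96 to 48.1 (median 34.2) in STZ-cKOt (−1.91 ± 0.17). In the list of liver-type secreted proteins 8 of 21 tested members rose and 4 fell, so fibrinogen and albumin moved in opposite directions. The complement gene C4a fell by 2.85 ± 0.29 and the secreted factor gene Angptl7 by 3.84 ± 0.35 on the log2 scale. Nkain1, whose protein binds the sodium pump, stood at −2.47 ± 0.19 and Ctxn3 at −2.89 ± 0.38. Synpr, a synaptic vesicle protein gene, varied widely among controls, from 1.08 to 49.1 CPM (median 5.44) in STZ-control, and stood at no more than 1.01 CPM in STZ-cKOt (−4.69 ± 0.72). For all 8 of these genes the groups did not overlap. The Serpina1 genes and C4a with C4b are near-identical copies, so their counts are uncertain.

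Measured as reads gained, Ndrg1, a hypoxia- and differentiation-linked gene (chromosome 15, 66929318 to 66969640), changed most in STZ-cKOt among genes past the threshold. It ran from 769 to 2264 CPM (median 1070.2) in STZ-control and from 3629 to 4762 (median 4113) in STZ-cKOt, with STZ-control 2 highest among controls at 2264 CPM. The difference was 1.69 ± 0.13, and 1.85 without that library. Hao2, Pck1, Gatm and the amino acid transport partner gene Cltrn also gained many reads. Cltrn ran from 970.3 to 1342 CPM (median 1189) in STZ-control and from 1747 to 2468 (median 1911) in STZ-cKOt without overlap (0.77 ± 0.08). The largest losses were mitochondrially encoded genes, Kap and Cyp4b1.

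The genes of gluconeogenesis, the pathway in the title of the series, did not move as one. Of 18 members 3 rose and 3 fell, with a median of 0.00. Without STZ-control 2 these were 2 and 3, and without the 4 libraries that stood apart 1 and 3. G6pc, the catalytic subunit of glucose-6-phosphatase that releases free glucose (chromosome 11, 101367561 to 101377903), ran from 211 to 454 CPM (median 331) in STZ-control and from 493 to 742 (median 598) in STZ-cKOt. Every knockout library lay above every control. The difference was 0.88 ± 0.12 (edgeR adjusted p = 4.21e-07), 0.88 without STZ-control 2, and 0.34 ± 0.12 in PBS mice, whose groups stood at medians of 511 and 664 CPM. Pck1, phosphoenolpyruvate carboxykinase and the committed step (chromosome 2, 173153048 to 173159273), ran from 1478 to 2190.3 CPM (median 1693) in STZ-control and from 1889.6 to 3321 (median 2260.1) in STZ-cKOt. These groups overlapped. The difference was 0.43 ± 0.14 (edgeR adjusted p = 0.0241), with 0.07 ± 0.14 in PBS mice (adjusted p = 0.745). Without the 4 libraries that stood apart it was 0.38 (adjusted p = 0.0694) and no longer passed. The interaction, the test of whether the knockout effect differed between STZ and PBS mice, gave an adjusted p of 0.332 for G6pc and 0.431 for Pck1.

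Fbp1 and Pcx did not pass the test. Fbp1, fructose-1,6-bisphosphatase, ran from 652 to 1004 CPM (median 895) in STZ-control and from 807 to 1139.7 (median 912) in STZ-cKOt (0.06 ± 0.08, adjusted p = 0.671). Pcx, pyruvate carboxylase, ran from 423 to 685 CPM (median 562) in STZ-control and from 409 to 672 (median 577) in STZ-cKOt (0.01 ± 0.10, adjusted p = 0.972). Among the members that fell, Ldhb, which turns lactate into pyruvate, stood at −0.22 ± 0.06 and Glyctk, glycerate kinase, at −0.24 ± 0.08.

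**Figure D3:**
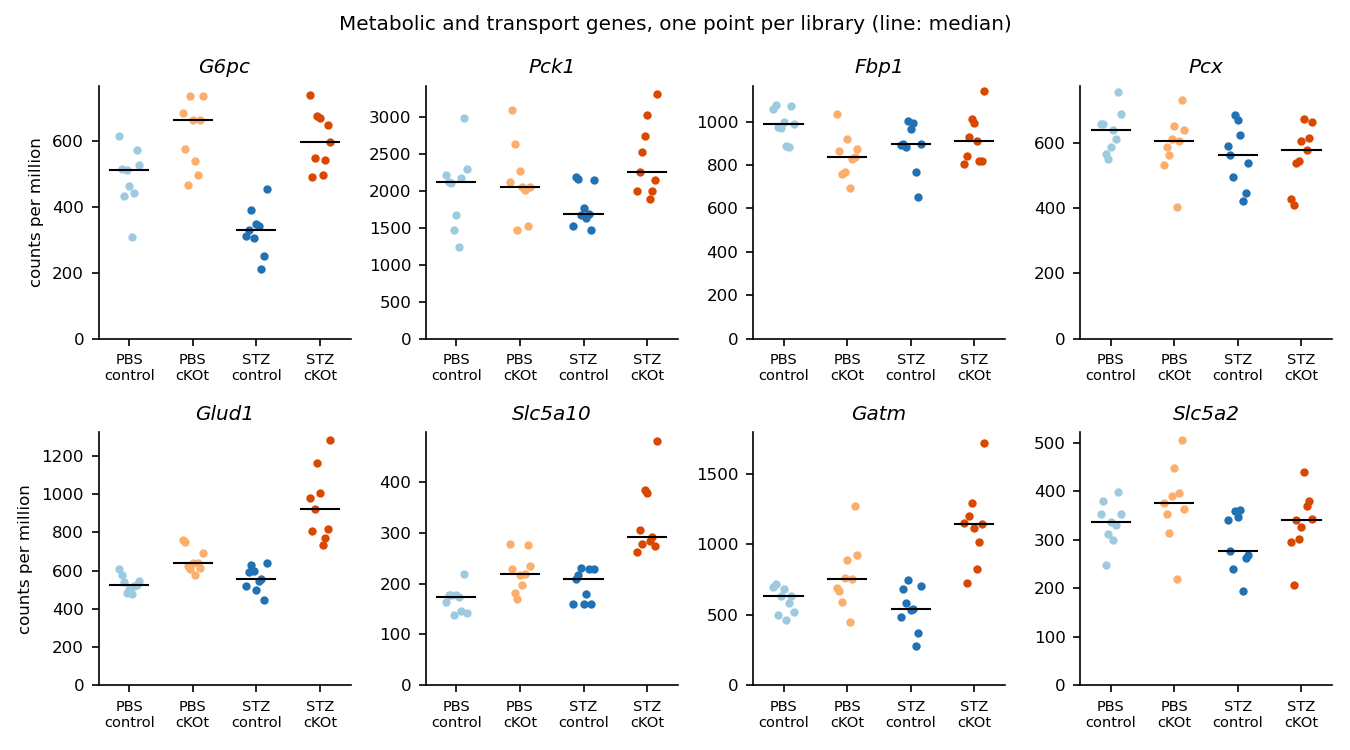
Level of 8 genes of sugar transport, gluconeogenesis, glutamate and creatine metabolism in every library of the 4 groups, in CPM on axes that start at 0, with a line at the median of 9. In STZ mice G6pc, Glud1 and Slc5a10 of all knockout libraries lie above all controls, Gatm is higher with slight overlap, and Fbp1, Pcx and Slc5a2 overlap broadly.

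Genes of glucose entry changed in part. Neither sodium-glucose cotransporter of the apical membrane passed the test. Slc5a2 (SGLT2) ran from 193 to 362 CPM (median 277) in STZ-control and from 207 to 439.8 (median 340.0) in STZ-cKOt (0.18 ± 0.13, adjusted p = 0.352) and Slc5a1 (SGLT1) from 59.7 to 75.6 CPM (median 65.3) in STZ-control and from 57.6 to 83.8 (median 75.2) in STZ-cKOt (0.09 ± 0.08, adjusted p = 0.439). Slc2a2 (GLUT2), the basolateral exit, stood at 0.06 ± 0.13 (adjusted p = 0.794). Of the 10 members of the list 4 rose and 1 fell. Slc5a10, a carrier of mannose and fructose, rose without overlap, from 159 to 231 CPM (median 209) in STZ-control and from 262 to 481 (median 293) in STZ-cKOt (0.73 ± 0.11). Slc5a9 ran from 42.5 to 52.02 CPM (median 47.5) in STZ-control and from 58.9 to 65.4 (median 60.2) in STZ-cKOt (0.36 ± 0.05), also apart. The facilitative glucose carrier gene Slc2a1 (GLUT1) rose by 0.34 ± 0.07, and the fructose carrier gene Slc2a5 fell (−0.68 ± 0.11).

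Glutamine breakdown, which yields ammonium and carbon for glucose, had several higher genes. Of 11 tested members of ammoniagenesis and proximal acid handling 5 rose and 1 fell, 4 and 1 without the 4 libraries that stood apart. Glud1, glutamate dehydrogenase (chromosome 14, 34310727 to 34345265), ran from 448 to 639 CPM (median 554) in STZ-control and from 735 to 1283 (median 922) in STZ-cKOt without overlap (0.76 ± 0.09, edgeR adjusted p = 7.31e-09). Its difference in PBS mice was 0.31 ± 0.09, and the interaction had an adjusted p of 0.204. The carbonic anhydrase gene Car2 rose by 0.43 ± 0.07 and Slc9a3, the apical sodium-proton exchanger NHE3, fell (−0.42 ± 0.08). Of 19 amino acid and peptide transporters 7 rose and 2 fell. The taurine carrier gene Slc6a6 ran from 247 to 447 CPM (median 346) in STZ-control and from 433 to 645 (median 517) in STZ-cKOt (0.60 ± 0.11) and Slc7a13 from 549 to 843 CPM (median 693) in STZ-control and from 229 to 569 (median 441) in STZ-cKOt (−0.64 ± 0.12).

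Enzymes of betaine, glycine and one-carbon metabolism moved in both directions, 9 of 20 higher and 7 lower. Bhmt, which remethylates homocysteine with betaine (chromosome 13, 93616675 to 93637961), ran from 1.61 to 7.19 CPM (median 2.73) in STZ-control and from 22.1 to 68.3 (median 50.7) in STZ-cKOt (3.76 ± 0.29). Its neighbour on the chromosome, Dmgdh, which takes the next step of betaine breakdown, ran from 146 to 188 CPM (median 161) in STZ-control and from 249 to 283 (median 267) in STZ-cKOt (0.68 ± 0.05). Amt, of the glycine cleavage system, ran from 63.4 to 83.6 CPM (median 74.3) in STZ-control and from 122 to 165 (median 136) in STZ-cKOt (0.94 ± 0.07) and Shmt1, which moves one-carbon units between serine and glycine, from 41.05 to 56.9 CPM (median 49.2) in STZ-control and from 64.6 to 91.1 (median 78.2) in STZ-cKOt (0.70 ± 0.07). All 4 separated the genotypes without overlap. Gatm, the first enzyme of creatine synthesis, ran from 278 to 747 CPM (median 539) in STZ-control and from 725 to 1725 (median 1146) in STZ-cKOt and overlapped slightly (1.05 ± 0.17, or 0.37 ± 0.16 in PBS mice).

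Of 28 tested fatty acid oxidation genes 14 fell and 4 rose, and 14 and 3 without STZ-control 2. Acaa1b, a peroxisomal thiolase, ran from 107 to 229 CPM (median 184) in STZ-control and from 63.8 to 102 (median 85.1) in STZ-cKOt (−1.07 ± 0.12). Acadl, the long-chain acyl-CoA dehydrogenase, ran from 327 to 386 CPM (median 357) in STZ-control and from 204 to 315 (median 239) in STZ-cKOt (−0.54 ± 0.07) and Crat, carnitine acetyltransferase, from 167 to 196 CPM (median 187) in STZ-control and from 115 to 162 (median 137) in STZ-cKOt (−0.43 ± 0.05). None of these 3 overlapped. Of 22 genes of fatty acid synthesis and lipid storage 7 fell and 1 rose. Scd1, the stearoyl-CoA desaturase, ran from 68.5 to 179 CPM (median 87.5) in STZ-control and from 25.8 to 40.4 (median 31.8) in STZ-cKOt (−1.69 ± 0.34), and Dgat2, which makes triglyceride, from 122 to 161 CPM (median 137) in STZ-control and from 79.6 to 114 (median 98.8) in STZ-cKOt (−0.55 ± 0.07). The lipid droplet genes Plin2 and Plin5 stood at −0.38 ± 0.08 and −0.94 ± 0.16, both past the threshold. Of 20 cholesterol genes 3 rose and 5 fell, with Idi1 at 0.96 ± 0.18, Pmvk at 0.44 ± 0.09, Dhcr7 at −0.39 ± 0.06 and the squalene epoxidase gene Sqle at −0.39 ± 0.09.

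Slc16a1, the carrier of lactate, pyruvate and ketone bodies (chromosome 3, 104638668 to 104658462), rose. It ran from 21.2 to 80.1 CPM (median 25.6) in STZ-control and from 75.7 to 133 (median 99.1) in STZ-cKOt and overlapped through STZ-control 2 alone. The difference was 1.59 ± 0.18, or 1.87 without that library (edgeR adjusted p = 3.78e-14). Among the other 11 ketone and monocarboxylate genes 2 rose, one of them the lactate cotransporter gene Slc5a8 (0.34 ± 0.11), and Bdh1, which interconverts ketone bodies, was among 2 that fell (−0.38 ± 0.08). Pyruvate dehydrogenase and citric acid cycle genes had 5 of 20 higher and 3 lower. The inhibitory kinase genes Pdk1 and Pdk4 stood at 0.49 ± 0.08 and 1.14 ± 0.28 and Pdk3 at −0.37 ± 0.09. Pdk4 ran from 10.6 to 30.7 CPM (median 19.7) in STZ-control and from 26.1 to 69.9 (median 35.9) in STZ-cKOt, with STZ-control 2 the highest control. Sdha, of succinate dehydrogenase, rose by 0.22 ± 0.05. In glycolysis 2 of 17 rose and 4 fell, and 2 and 2 without the 4 libraries that stood apart, with Pfkfb3, a maker of the activator fructose-2,6-bisphosphate, at −0.43 ± 0.10 and the pyruvate kinase gene Pklr at 0.33 ± 0.08. Gapdh and Pgam1 share sequence with many pseudogenes, so their counts are uncertain.

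In fructose, polyol and inositol metabolism 3 of 11 rose and 2 fell. Miox, which opens the ring of inositol, ran from 751 to 1243 CPM (median 853) in STZ-control and from 463 to 727 (median 525) in STZ-cKOt (−0.80 ± 0.11) and the sorbitol dehydrogenase gene Sord fell by less (−0.27 ± 0.05). The inositol carrier gene Slc5a11 and Impa2 rose (0.35 ± 0.07 and 0.33 ± 0.09). Of 19 tested retinoid and aldehyde genes 3 rose and 6 fell. Rarres2, which encodes chemerin, ran from 21.8 to 41.9 CPM (median 27.97) in STZ-control and from 12.1 to 16.4 (median 13.9) in STZ-cKOt (−1.08 ± 0.13), Adh1 from 304 to 578 CPM (median 499) in STZ-control and from 256 to 359 (median 289.7) in STZ-cKOt (−0.68 ± 0.11), and Aldh9a1 stood at −0.42 ± 0.05. Rdh10, which starts retinoic acid synthesis, rose without overlap, from 48.4 to 69.6 CPM (median 50.8) in STZ-control and from 74.2 to 101 (median 83.6) in STZ-cKOt (0.63 ± 0.07), and its highest control was STZ-control 2.

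Among genes known to be higher in male kidneys or to respond to androgen, 13 of 17 fell and 1 rose, with a median of −0.69. Cyp4a12a, an omega-hydroxylase of arachidonic acid, ran from 52.3 to 212 CPM (median 145) in STZ-control and from 4.78 to 19.7 (median 12.5) in STZ-cKOt (−3.43 ± 0.36), and its near-identical copy Cyp4a12b from 15.5 to 30.1 CPM (median 20.03) in STZ-control and from 3.34 to 7.78 (median 5.55) in STZ-cKOt (−1.999 ± 0.18). Cyp4b1 ran from 1789.6 to 2632 CPM (median 2372) in STZ-control and from 531 to 1460.2 (median 790.4) in STZ-cKOt (−1.35 ± 0.12). Odc1, the first step of polyamine synthesis, ran from 541 to 1541 CPM (median 1121) in STZ-control and from 409 to 670.3 (median 458) in STZ-cKOt (−1.15 ± 0.14) and Nudt19 from 561 to 1254 CPM (median 1146) in STZ-control and from 264 to 588 (median 449.6) in STZ-cKOt (−1.33 ± 0.14). Odc1 and Nudt19 overlapped through STZ-control 9, the lowest control for both. Kap, a very abundant androgen-dependent gene of the proximal tubule, ran from 13952 to 43696 CPM (median 26268) in STZ-control and from 11724 to 25543 (median 18963) in STZ-cKOt (−0.52 ± 0.16). It did not pass without the 4 libraries that stood apart (−0.33, adjusted p = 0.0957). Of 6 female-biased genes 3 rose and 1 fell. Slc7a12 was described above, Prlr, the prolactin receptor gene, ran from 3.07 to 11.9 CPM (median 6.27) in STZ-control and from 7.59 to 37.2 (median 22.6) in STZ-cKOt (1.75 ± 0.28), and Slc22a7 fell (−0.74 ± 0.21).

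The wider family of arachidonate and fatty acid hydroxylases, whose products act on vessel tone and salt transport, had 7 of 15 tested members lower and 1 higher, and 6 and 0 without the 4 libraries that stood apart. Ephx2, soluble epoxide hydrolase, which ends the action of epoxides, ran from 458 to 666 CPM (median 567) in STZ-control and from 322 to 396 (median 357) in STZ-cKOt without overlap (−0.63 ± 0.07).

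Of 15 tested renin-angiotensin and kinin genes 5 rose and 3 fell. Agt, angiotensinogen, ran from 44.6 to 68.6 CPM (median 49.9) in STZ-control and from 65.2 to 116 (median 86.3) in STZ-cKOt (0.72 ± 0.09, or 1.22 ± 0.09 in PBS mice, interaction adjusted p = 0.198). Kng1, kininogen, rose at a low level, from 0.336 to 0.970 CPM (median 0.408) in STZ-control and from 0.957 to 2.83 (median 1.57) in STZ-cKOt (1.61 ± 0.25), and the prorenin receptor gene Atp6ap2 rose (0.28 ± 0.05).

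Sodium handling changed at single genes. In the proximal tubule and loop 2 of 15 rose and 3 fell. Umod, uromodulin, the most abundant protein of urine, ran from 1875 to 2943 CPM (median 2256) in STZ-control and from 1186 to 1882 (median 1317) in STZ-cKOt (−0.76 ± 0.10). In PBS mice it stood at −0.27 ± 0.10 (adjusted p = 0.0541), with an interaction adjusted p of 0.273. Slc9a3r1, a scaffold of apical carriers, fell (−0.39 ± 0.07) and the paracellular channel gene Cldn10 rose (0.32 ± 0.07). In the distal nephron 5 of 18 rose and 0 fell at the adjusted threshold, and 6 and 0 without STZ-control 2. By edgeR, leaving out the 4 libraries that stood apart gave 6 and 1. The magnesium channel gene Trpm6 (0.45 ± 0.11) and the calcium channel gene Trpv5 (0.41 ± 0.10) rose most firmly, and Klhl3 and Wnk1, regulators of the thiazide-sensitive cotransporter, stood at 0.24 ± 0.08 and 0.29 ± 0.10, the latter no longer past the threshold without the 4 libraries that stood apart (adjusted p = 0.0574). In the mineralocorticoid pathway 3 of 15 rose and 2 fell. Sgk1, a kinase that holds sodium channels at the membrane, ran from 71.3 to 164 CPM (median 106) in STZ-control and from 144 to 316 (median 201) in STZ-cKOt (0.91 ± 0.15). Hsd11b1, which regenerates active glucocorticoid, ran from 107 to 302 CPM (median 192) in STZ-control and from 46.5 to 83.6 (median 61.9) in STZ-cKOt without overlap (−1.66 ± 0.16), and Prss8, a protease that activates the sodium channel, from 236 to 339 CPM (median 294) in STZ-control and from 152 to 231 (median 205) in STZ-cKOt (−0.54 ± 0.07). Tsc22d3, a glucocorticoid target, rose by 0.37 ± 0.10.

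Among 13 tested water channels and vasopressin receptors 2 rose and 5 fell. Besides Aqp8, Avpr1a, a vasopressin receptor, rose, from 3.88 to 9.16 CPM (median 5.45) in STZ-control and from 14.1 to 20.6 (median 16.04) in STZ-cKOt (1.58 ± 0.12). Aqp3, the basolateral exit of principal cells, ran from 62.9 to 77.6 CPM (median 69.9) in STZ-control and from 43.9 to 59.7 (median 53.8) in STZ-cKOt (−0.39 ± 0.06), and Aqp6, of intercalated cells, fell (−0.70 ± 0.11). Of 16 phosphate and vitamin D genes 3 rose and 7 fell. Slc34a2, a sodium-phosphate cotransporter best known from lung and intestine, ran from 2.74 to 5.85 CPM (median 3.26) in STZ-control and from 7.50 to 14.5 (median 11.9) in STZ-cKOt (1.62 ± 0.15). Vdr, the vitamin D receptor gene, rose (0.33 ± 0.06) and the phosphate carrier gene Slc20a1 fell (−0.54 ± 0.09), both without overlap. In the acid-base genes of intercalated cells 4 of 12 rose and 2 fell, with 7 and 2 without the 4 libraries that stood apart. The proton pump subunit gene Atp6v0a4 rose by 0.45 ± 0.09, Atp6v1b1 by 0.20 ± 0.06, and the anion exchanger gene Slc4a1 fell (−0.46 ± 0.12).

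Among 28 metabolic nuclear receptors and coregulators 3 rose and 6 fell, and 2 and 3 without the 4 libraries that stood apart. Ppard, a fatty acid sensor (chromosome 17, 28232700 to 28301474), ran from 11.02 to 17.5 CPM (median 13.3) in STZ-control and from 45.9 to 99.3 (median 65.1) in STZ-cKOt (2.27 ± 0.12). Ppargc1a, a coactivator of gluconeogenic and mitochondrial genes, ran from 73.7 to 115 CPM (median 88.5) in STZ-control and from 90.4 to 118 (median 113) in STZ-cKOt (0.27 ± 0.09, adjusted p = 0.0229). Without the 4 libraries that stood apart it stood at 0.20 (adjusted p = 0.0602). Hnf4a, a master factor of the proximal tubule, stood at −0.15 ± 0.07 (adjusted p = 0.136). Ppargc1b (−0.47 ± 0.13), Tfeb (−0.33 ± 0.08) and the sterol receptor gene Nr1h3 (−0.33 ± 0.07) fell. Of 22 insulin and IGF signalling genes 5 rose and 1 fell, and 4 and 2 without STZ-control 2. The insulin receptor gene Insr rose (0.27 ± 0.08), as did Igfbp7 (0.31 ± 0.06) and Ppp1r3b, which directs glycogen synthesis (1.18 ± 0.29), and Igfbp4 fell (−0.51 ± 0.08).

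**Figure D4:**
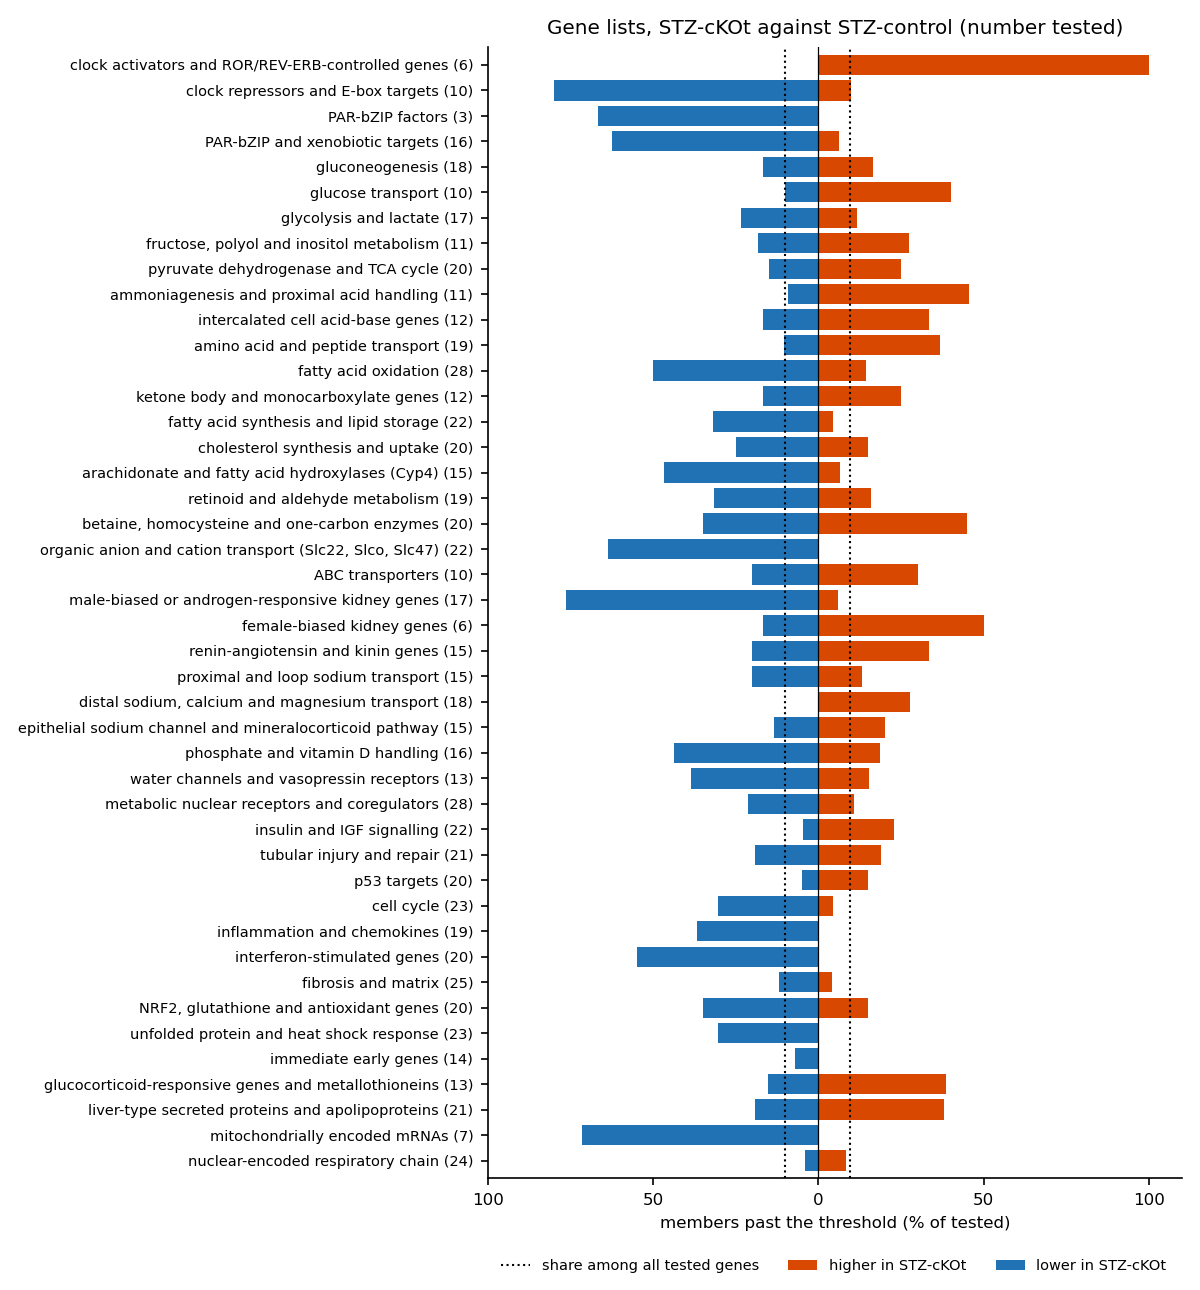
Share of tested members of 44 gene lists that were higher (right, orange) or lower (left, blue) in STZ-cKOt than in STZ-control at an adjusted p under 0.05, in percent, with the number tested in brackets. Dotted lines mark the shares among all tested genes, 9.52% higher and 10.1% lower; the shares are largest for the clock activators (6 of 6 higher), the clock repressors (8 of 10 lower), the male-biased genes (13 of 17 lower) and the mitochondrially encoded mRNAs (5 of 7 lower).

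Genes of tubular injury and repair showed no common direction, with 4 of 21 tested higher and 4 lower. The 3 fibrinogen genes were among the higher members, and Il34, a growth factor of macrophages, fell, from 9.57 to 31.1 CPM (median 26.8) in STZ-control and from 4.76 to 14.5 (median 5.91) in STZ-cKOt (−1.79 ± 0.20). Havcr1, the tubular injury marker KIM-1, named after its values were seen, ran from 2.26 to 8.21 CPM (median 4.33) in STZ-control and from 0.687 to 2.80 (median 1.31) in STZ-cKOt (−1.45 ± 0.24, edgeR adjusted p = 1.01e-05). Cdkn1a, which encodes the cell cycle inhibitor p21 (chromosome 17, 29090976 to 29100727), ran from 29.97 to 52.2 CPM (median 44.3) in STZ-control and from 70.6 to 111 (median 84.2) in STZ-cKOt without overlap (1.10 ± 0.11). Of 20 p53 targets it was 1 of 3 that rose, with Sesn1 (0.25 ± 0.07) and Sesn2 (0.23 ± 0.08), while Plk2 fell (−0.39 ± 0.10). Without the 4 libraries that stood apart 1 of the 20 rose and 2 fell. Of 23 tested cell cycle genes 7 fell and 1 rose. Ccnd1, cyclin D1, ran from 216 to 358 CPM (median 269.8) in STZ-control and from 88.2 to 137 (median 107) in STZ-cKOt (−1.33 ± 0.11), and Wee1, a clock-linked mitotic kinase gene, from 18.5 to 30.6 CPM (median 25.6) in STZ-control and from 12.1 to 17.5 (median 14.2) in STZ-cKOt (−0.80 ± 0.10). Ccnb1 (−0.74 ± 0.21) and Ccne1 (−0.61 ± 0.18) were low in all libraries.

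Immune-related lists were lower where they moved. Of 19 tested inflammation genes 7 fell and of 20 interferon-stimulated genes 11, with 0 higher in either by edgeR. Without STZ-control 2 these were 6 and 9, again with 0 higher. The chemokine genes Cxcl1 and Cxcl10 stood at −1.34 ± 0.27 and −0.70 ± 0.12. C4b, complement component 4, ran from 6.66 to 71.6 CPM (median 13.04) in STZ-control and from 2.67 to 8.32 (median 4.16) in STZ-cKOt (−1.95 ± 0.36), its highest value being that of STZ-control 5. Csf1, which sustains macrophages, fell (−0.44 ± 0.09). Irf7 (−0.57 ± 0.12), Bst2 (−0.47 ± 0.09), Ifi27 (−0.49 ± 0.11) and Stat2 (−0.27 ± 0.05) were the interferon genes with the smallest p. In PBS mice 4 of the 20 interferon genes fell, where 12.5% of all tested genes did. Ifi27 and Bst2 stood there at 0.03 ± 0.11 and −0.08 ± 0.10, and their effects were not shown to differ between treatments (edgeR interaction adjusted p = 0.273 and 0.361). Of 8 macrophage markers 6 fell and 0 rose, 5 and 0 without STZ-control 2. Their summed level ran from 228 to 385 CPM (median 292) in STZ-control and from 193 to 230 (median 210) in STZ-cKOt, and their part in the immune lists was not tested. In whole kidney, fewer cells of a type and less RNA per cell cannot be told apart. T and B cell markers summed to between 2.49 and 6.23 CPM in the 18 libraries, and 1 of 7 tested fell, or 2 without STZ-control 2.

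Fibrosis and matrix genes mostly did not pass, with 1 of 25 higher (Loxl4) and 3 lower, Loxl1 (−0.44 ± 0.14), Acta2 (−0.38 ± 0.12, adjusted p = 0.182 without the 4 libraries that stood apart) and Timp2 (−0.21 ± 0.08). Of 20 tested NRF2 and glutathione genes 3 rose and 7 fell. Hmox1, heme oxygenase, ran from 21.1 to 39.5 CPM (median 31.4) in STZ-control and from 11.2 to 23.7 (median 15.9) in STZ-cKOt (−0.99 ± 0.13), Cat, catalase, from 1033 to 1233 CPM (median 1110.0) in STZ-control and from 801 to 922 (median 873) in STZ-cKOt (−0.37 ± 0.05), and the glutathione-cleaving Ggt1 from 731 to 1248 CPM (median 1119) in STZ-control and from 613 to 904 (median 696) in STZ-cKOt (−0.56 ± 0.08). Gsr, glutathione reductase, rose without overlap (0.47 ± 0.06). Of 23 unfolded protein and heat shock genes 7 fell and 0 rose at the adjusted threshold, 6 and 0 without STZ-control 2. Herpud1 (−0.56 ± 0.08), Hsph1 (−0.53 ± 0.11), Ddit3 (−0.59 ± 0.15) and Creld2 (−0.37 ± 0.10) were among them. Immediate early genes had 1 of 14 lower, Atf3 (−0.59 ± 0.21, adjusted p = 0.0423), which missed the threshold without the 4 libraries that stood apart. Of 13 tested glucocorticoid-responsive genes and metallothioneins 5 rose and 2 fell, among the latter Mt2 (−0.68 ± 0.17).

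Segment markers bear on how the tissue was made up. Of 13 proximal tubule markers 6 fell and 1 rose, and 6 and 0 in edgeR both without STZ-control 2 and without the 4 libraries that stood apart, with summed levels from 18437 to 23969 CPM in STZ-control and from 17090 to 20826 in STZ-cKOt. Thick ascending limb markers had 2 of 6 higher and 1 lower, the latter Umod. Distal convoluted tubule markers had 2 of 4 higher and summed to between 1185 and 1531 CPM in STZ-control and between 1507 and 2196 in STZ-cKOt. For 7 endothelial markers edgeR called 0 in either direction, and for 6 podocyte markers 1 lower. Their part in the lists of transport genes was not tested. Of 6 liver cell markers 4 were tested, 3 of which rose and 1, Alb, fell.

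Mitochondrially encoded mRNAs were lower in 5 of the 7 members that passed the filter on low counts, of 13 in all. Those below the filter were mt-Atp6, mt-Atp8, mt-Co2, mt-Co3, mt-Nd3 and mt-Nd4l. Reads with several matches were left uncounted, and their part in these low counts and in the mitochondrial share was not tested. mt-Nd1 ran from 22051 to 44631 CPM (median 25726) in STZ-control and from 16155 to 24641 (median 20408) in STZ-cKOt (−0.48 ± 0.11), mt-Nd2 from 15482 to 27009.7 CPM (median 18711) in STZ-control and from 12238 to 18055 (median 14776) in STZ-cKOt (−0.40 ± 0.11), and mt-Nd4, mt-Nd5 and mt-Cytb stood at −0.37 ± 0.12, −0.39 ± 0.14 and −0.33 ± 0.12. Without the 4 libraries that stood apart, among them the controls with the highest mitochondrial shares, 2 of the 7 were lower. The mitochondrial share of assigned reads was 18.8% ± 3.76 in STZ-control and 15.8% ± 1.71 in STZ-cKOt (SD, n = 9 each; two-sided exact permutation test, p = 0.0314). Adjusted over 4 library measures tested, it was p = 0.0628 by the same exact permutation tests. Without STZ-control 7 and 8, the controls with the highest shares, the difference was −1.26 percentage points (exact permutation p = 0.131). Leaving out the highest controls had to narrow the difference, so this setting cannot decide whether the share differed. Of 24 nuclear-encoded respiratory chain genes 2 rose, such as Uqcrc2 (0.19 ± 0.05), and 1, Ndufa1, fell (−0.30 ± 0.11). Ndufa1 did not pass in the fit that left out the 4 libraries that stood apart (adjusted p = 0.21).

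The knockout effect in diabetic mice was then set beside that in PBS mice, with which it shares no library. Of 395 genes that changed at least 2-fold and passed in PBS mice, 319 (80.8%) also passed in the same direction in STZ mice and 0 in the opposite one. The test of the difference between the effects called 7 of 15637 genes (0.0448%), 6 without STZ-control 2, and in each the STZ effect was the lower number. The smallest adjusted p of the 7 was that of Cdkn1a, which rose by 1.10 ± 0.11 in STZ mice and by 2.46 ± 0.13 in PBS mice (edgeR interaction adjusted p = 1.93e-05). Its control medians were 44.3 CPM in STZ mice and 4.00 in PBS mice, and its knockout medians 84.2 and 22.2, so the knockout's gain in CPM was larger in STZ mice and the ratio smaller. Ppard rose by 3.12 ± 0.13 in PBS mice, more than the 2.27 ± 0.12 in STZ mice (0.0388), and its knockout medians were 65.1 CPM with STZ and 112 with PBS.

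Cyp2a4 and Cyp2a5 fell further in STZ than in PBS mice, where they stood at −2.93 ± 0.17 and −3.93 ± 0.23 (interaction adjusted p = 0.0233 and 0.0388). Their PBS-cKOt medians were 69.2 and 7.15 CPM, and their STZ-cKOt medians 27.7 and 3.04. The apolipoprotein genes Apoc3 and Apoa4, which lie close together on chromosome 9, also differed. Apoc3 rose in PBS mice (1.30 ± 0.15) and stood at 0.06 ± 0.14 in STZ mice (0.00405), and Apoa4 fell in STZ mice (−0.82 ± 0.15) and stood at 0.33 ± 0.14 in PBS mice (0.0105). Mcm2, a replication helicase gene, rose in PBS mice (0.36 ± 0.06) and stood at −0.05 ± 0.06 in STZ mice (0.0388). The sialic acid exporter gene Slc17a5 passed in opposite directions, 0.15 ± 0.05 in STZ and −0.13 ± 0.05 in PBS mice, but its interaction did not pass (adjusted p = 0.162).

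**Figure D5:**
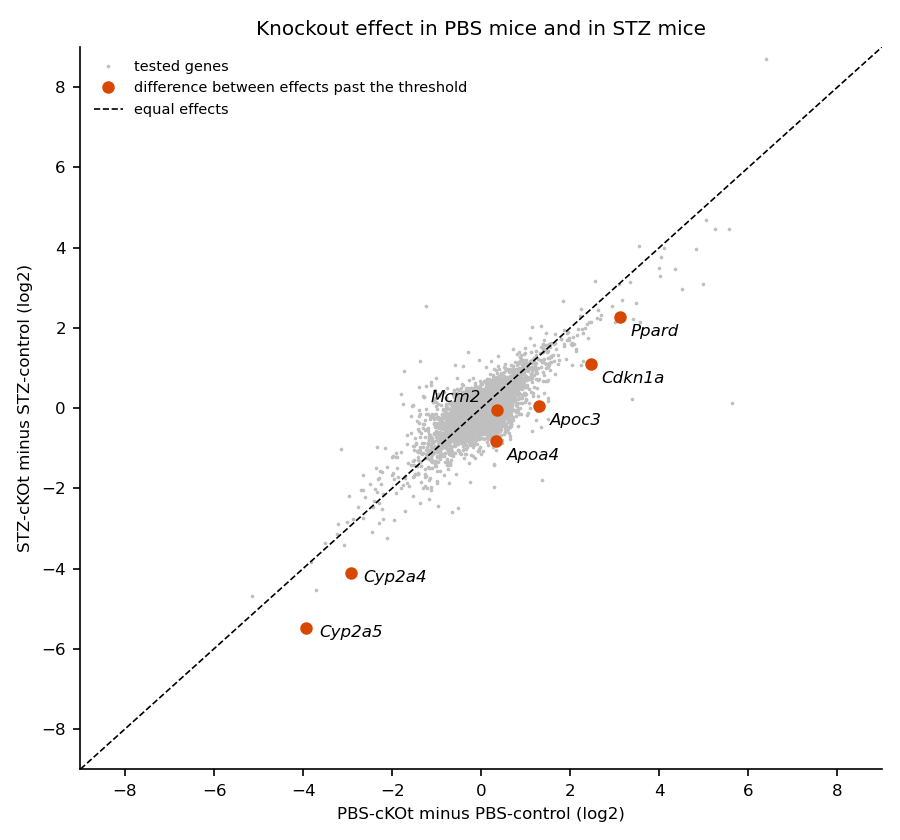
Knockout effect in PBS mice (horizontal axis) against that in STZ mice (vertical axis), both as log2 differences, for 15637 tested genes in grey, with the dashed line at equal effects. The 7 genes whose effects differed past the threshold are in orange and lie below the line.

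For most metabolic genes named above the difference between treatments was not shown. Glud1, Gatm, G6pc, Umod and Car2 had larger log2 differences in STZ mice (Car2 0.43 ± 0.07 against 0.06 ± 0.07), and their interaction adjusted p ran from 0.204 for Glud1 to 0.332 for G6pc and 0.332 for Gatm, with 0.273 for Umod and 0.228 for Car2. Npas2 and Nr1d2 had smaller differences in STZ mice in absolute size (4.46 ± 0.17 against 5.55 ± 0.18, and −1.75 ± 0.10 against −2.29 ± 0.10), also without an interaction past the threshold (0.12 and 0.198). STZ-control 2 lowers the STZ value of both, which were 4.72 and −1.82 without it.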

How the data were processed

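RNA of 36 whole mouse kidneys was sequenced from 500 ng of total RNA with the TruSeq Stranded mRNA kit, per the labels' protocols. The authors deposited raw read counts per gene, made with cutadapt 1.8, STAR 2.5.3a and HTSeq 0.9.1 on GRCm38, per the submitters' processing notes. For strand setting, annotation release and other counting options no statement was found in these notes or labels. The 5 closing entries that name no gene, one of which holds reads with several matches, were removed before library sizes were computed. In the STZ libraries reads with several matches made up 32.5% to 42.8% of all reads in the file and reads outside genes 3.95% to 5.32%. Symbols and coordinates came from GENCODE M21, in which 53620 of 53715 gene identifiers had a symbol, and promoters from RefSeq (GRCm38.p6).

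The 18 STZ libraries held 16.9 to 22.3 M assigned reads. Genes were kept by edgeR's filterByExpr (15637 genes), scaled by TMM and fitted in edgeR 4.0.16 (R 4.3.3) with 1 mean for each of the 4 groups and 32 residual degrees of freedom. Quasi-likelihood F tests with Benjamini-Hochberg adjustment over all tested genes, at 0.05, compared STZ-cKOt with STZ-control, PBS-cKOt with PBS-control, and the first difference with the second. Standard errors are the log2 difference over the square root of F. Library measures were compared by two-sided exact permutation tests. Alternatives used DESeq2 1.42.0, limma 3.58.1, other filters and fewer libraries. On simulated data, 77.6%, 91% and 100% of genes changed 1.5-, 2- and 4-fold were recovered, with 7.25% false calls. The simulation changed 67, 67 and 66 of 15637 genes, far fewer than passed here, and made no library stand apart. Its rates need not hold for these data.

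Genes were named by a rule: all clock genes and a fixed set, up to 4 members of each list by adjusted p, the 12 largest rises and falls at a mean of 2 CPM or more, the 6 largest gains and losses of CPM, the genes whose effect differed between treatments, and genes bearing on STZ-control 2. The members, lists and rule were chosen with earlier results of these data known. The labels give 9 animals a group. Some members of the lists enter the counts but are not reported here by name.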

Additional observations from a re-analysis of the deposited data

Results flagged for a closer look

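In 396 groups of 9 values examined, 35 had a highest or lowest library set apart from the other 8 by Dixon's criterion. In unselected groups chance does this in about 1 in 20. Some of these genes were named for their level in STZ-control 2, which holds 12 of the 35, so the 35 cannot be set against that rate. The library labelled STZ-control 2 stood apart in Arntl at 13.4 CPM (others 1.18 to 2.64), Ciart at 1.95 CPM (others 18.2 to 32.5), Creld2 at 31.6 CPM (others 17.7 to 24.1) and Cry1 at 13.5 CPM (others 3.34 to 7.58). It did so too in Havcr1 at 8.21 CPM (others 2.26 to 4.97), Itga6 at 115 CPM (others 45.1 to 79.02), Ndrg1 at 2264 CPM (others 769 to 1504) and Nfil3 at 11.97 CPM (others 1.77 to 4.78). It did so too in Nr1d1 at 18.2 CPM (others 59.6 to 95.5), Rdh10 at 69.6 CPM (others 48.4 to 58.3), Slc16a1 at 80.1 CPM (others 21.2 to 46.4) and Tef at 258 CPM (others 376 to 469). STZ-control 5 stood apart in Atf3 at 4.78 CPM (others 1.10 to 2.79), C4b at 71.6 CPM (others 6.66 to 16.5), Fgb at 2.18 CPM (others 0.114 to 0.970) and Fgg at 18.96 CPM (others 4.89 to 10.3). It did so too in Slc20a1 at 91.1 CPM (others 52.03 to 69.6). STZ-cKOt 2 stood apart in Atp6v1b1 at 128 CPM (others 87.2 to 106), Impa2 at 13.4 CPM (others 9.38 to 10.7), Slc17a5 at 89.8 CPM (others 102 to 113) and Umod at 1882 CPM (others 1186 to 1458). STZ-cKOt 9 stood apart in Alb at 3.21 CPM (others 0.949 to 2.06), Aldh9a1 at 489 CPM (others 359 to 402), Npas2 at 57.6 CPM (others 39.7 to 45.3) and Ppp1r3b at 6.65 CPM (others 2.12 to 4.03). STZ-cKOt 1 stood apart in Atp6ap2 at 174 CPM (others 138 to 156), Prss8 at 152 CPM (others 191 to 231) and Slc7a12 at 87.8 CPM (others 24.8 to 43.8). STZ-control 9 stood apart in Abcb1b at 10.5 CPM (others 3.45 to 6.77) and Slc22a7 at 34.5 CPM (others 149 to 241). STZ-cKOt 6 stood apart in Il34 at 14.5 CPM (others 4.76 to 8.66). STZ-cKOt 7 stood apart in mt-Nd4 at 14119.6 CPM (others 9313 to 11649.8). STZ-cKOt 8 stood apart in Abcg1 at 7.48 CPM (others 4.79 to 5.83). STZ-control 4 stood apart in Trpm6 at 15.6 CPM (others 21.3 to 26.2). The mitochondrial share of assigned reads in STZ-cKOt 7 was 19.9%, where the other 8 libraries of its group had 14.2% to 16.8%.

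The knockout effect differed between STZ and PBS mice by the interaction test in edgeR for 7 genes. The log2 difference between the effects, STZ minus PBS, was −1.20 for Cyp2a4, −1.57 for Cyp2a5, −0.86 for Ppard, −1.37 for Cdkn1a, −1.15 for Apoa4, −0.41 for Mcm2 and −1.24 for Apoc3.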

How the results depend on the processing

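The number of genes that differed between STZ-cKOt and STZ-control, 3061, ran from 2648 without a filter on low counts to 3620 with limma voom and quality weights. The number whose effect differed between STZ and PBS mice, 7, was 19 by DESeq2's Wald test and 15 by limma voom, and between 5 and 7 in the other settings tried. The cause was not tested. The mitochondrial share of assigned reads had an unadjusted exact permutation p of 0.0314 (0.0628 adjusted over 4 measures). Without STZ-control 7 and 8 it differed by −1.26 percentage points (exact permutation p = 0.131, unadjusted). These were the controls with the highest shares, so leaving them out had to narrow the difference. Of 196 genes followed, 178 kept their direction and their side of the threshold in every setting, and in none did a direction reverse. Calls were lost for 15 genes without the 4 libraries that stood apart, for 9 without a filter and for 2 without STZ-control 2. Counts per list without the 4 libraries were added after seeing the data. The replicate numbers did not pair the libraries, since same-numbered libraries' deviations correlated between −0.111 and 0.254 and 1 of 9 correlated best with its own number. With the replicate number as a block 3128 genes passed in STZ mice, 3738 in PBS mice and 5 for the difference. At this depth, genes with a few reads a library could not be tested.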
